A study of Mus musculus with 4 samples.

Results

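Glo1, Btbd9 and Dnah8, which are neighbours on mouse chromosome 17, Zhx2 on chromosome 15 and Ctps2 on chromosome X are 5 of the 31053 genes counted in single cells of back skin from BALB/c mice. They were chosen because their levels in Cd226-/- and WT skin had been seen to differ in nearly every cell type of these same libraries. The Cd226-/- over WT values below therefore describe how the genes were chosen and are given with no test. The 4 libraries were 1 of Cd226-/- and 1 of WT skin, each pooled from 3 mice that had received 25 µg of the mutagen DMBA once and, from 1 week later, 5 µg of the tumour promoter TPA in 3 weekly applications, and, from naive skin that received neither agent, 1 of sorted CD45+ and 1 of sorted CD45- cells, in both of which the labels put Cd226-/- and WT cells at equal parts. The treated skin was taken 3 weeks after treatment, and its CD45+ and CD45- cells were sorted and mixed in equal parts. CD226, also called DNAM-1, is an activating receptor of T and NK cells, and Cd226-/- mice lack it. The labels give neither the age of the mice nor the BALB/c substrain. Since each group is a single library, no value has a replicate check; intervals are exact 95% intervals of counting error, and the Cd226 genotype, other inherited differences between the pooled mice and the library itself cannot be told apart.

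Glo1 encodes glyoxalase 1, which with glutathione converts methylglyoxal, a toxic by-product of glycolysis, before Hagh (glyoxalase 2) completes its removal. Btbd9 encodes a BTB-domain protein that acts as an adaptor of the CUL3 ubiquitin ligase and has been tied to iron handling. Dnah8 encodes a heavy chain of axonemal dynein, the motor of cilia and sperm flagella. Zhx2 encodes a zinc-finger and homeodomain repressor of the ZHX family, known in mouse liver for silencing Afp, H19 and Gpc3 after birth. Ctps2 and its paralogue Ctps encode CTP synthases, which make CTP from UTP for nucleic acid and phospholipid synthesis. As background, some inbred mouse strains carry a duplicated stretch of chromosome 17 with Glo1, Dnah8 and part of Btbd9, and the BALB/cJ substrain carries a retroviral insertion in Zhx2 that lowers its transcript, whereas other BALB/c substrains do not. No DNA was read here, so neither variant was looked for, and whether either moves with the values below was not tested.

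In GRCm38 with GENCODE vM21, Glo1 lies at chr17:30584936-30626871 on the minus strand, Btbd9 at chr17:30215524-30576488 on the minus strand and Dnah8 at chr17:30624354-30877365 on the plus strand. The annotated Glo1 and Dnah8 genes overlap by 2518 bases on opposite strands, and 8447 bases separate Btbd9 from Glo1. Zhx2 lies at chr15:57694665-57839832 and Ctps2 at chrX:162901238-163032508, both on the plus strand. No source used here says whether counting used strand, so reads from the overlap of Glo1 and Dnah8 may not be separable. That overlap lies at the annotated 5′ ends of both genes, whereas the libraries are 3′ libraries. Glo1 and Dnah8 moved together from opposite strands, and Ctps2 moved the other way. Start regions are shown for these genes, and none was available for Btbd9 or Zhx2. Each is RefSeq sequence of the GRCm38.p6 reference strain, not of BALB/c, from 250 bases before to 50 bases after an annotated start, 5′ to 3′ on the gene's strand, with matches to a GC box (GGGCGG) or a CCAAT box (CCAAT) on either strand in capitals.
Glo1, chr17:30612610-30612909, minus strand: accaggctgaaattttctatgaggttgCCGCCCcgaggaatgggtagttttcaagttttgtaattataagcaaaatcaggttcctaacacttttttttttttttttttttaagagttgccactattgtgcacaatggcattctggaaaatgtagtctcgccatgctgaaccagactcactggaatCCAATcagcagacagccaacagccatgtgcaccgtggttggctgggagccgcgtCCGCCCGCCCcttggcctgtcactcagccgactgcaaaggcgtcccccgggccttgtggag
Dnah8, chr17:30626686-30626985, plus strand: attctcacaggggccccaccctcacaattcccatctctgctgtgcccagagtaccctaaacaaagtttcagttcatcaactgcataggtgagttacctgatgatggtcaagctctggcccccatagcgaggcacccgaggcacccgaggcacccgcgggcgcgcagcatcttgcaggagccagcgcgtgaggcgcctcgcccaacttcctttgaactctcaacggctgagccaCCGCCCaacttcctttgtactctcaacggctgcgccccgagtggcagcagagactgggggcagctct
Ctps2, chrX:162901921-162902220, plus strand: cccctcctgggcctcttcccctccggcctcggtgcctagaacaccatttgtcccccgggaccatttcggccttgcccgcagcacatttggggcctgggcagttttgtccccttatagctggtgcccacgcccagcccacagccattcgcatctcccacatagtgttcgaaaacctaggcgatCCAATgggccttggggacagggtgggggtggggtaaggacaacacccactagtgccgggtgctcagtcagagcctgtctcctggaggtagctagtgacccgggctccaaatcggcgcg
The Glo1 region held 3 GC boxes and 1 CCAAT box, the Dnah8 region 1 GC box and no CCAAT box, and this Ctps2 region 1 CCAAT box and no GC box. The other 2 annotated Ctps2 starts held neither. None of these regions held a TATA box (TATAAA) or an E box (CACGTG). Of 32851 such regions in the table, 35.7% held a GC box, 37.4% a CCAAT box, 13.6% a TATA box and 7.15% an E box. These are letter matches, not measured sites.

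The Cd226-/-, WT, naive CD45+ and naive CD45- libraries kept 6521, 7042, 3370 and 10598 cells, with medians of 9070, 8350, 8721.5 and 6555.5 UMIs (unique molecular identifiers, 1 per counted transcript molecule) per cell, and pairs of libraries shared 9 to 21 cell barcodes. Cells were grouped by marker genes, so each class name stands for a "-like" class, and a level is a gene's count scaled to a class total of 1000000 UMIs, written CPM. Cd226 UMIs in lymphocytes numbered 50 in the Cd226-/- library and 107 in the WT library (19.5 and 55.0 CPM); a 3′ tag outside a deleted stretch checks nothing. The antibody tag for DNAM-1 had medians of 2 and 44 counts in Cd226-/- and WT lymphocytes, and of 2 and 16 in their fibroblasts. Every library held transcripts of the Y-linked genes Ddx3y, Eif2s3y, Uty and Kdm5d and 2 or 3 UMIs of Xist, the transcript of the inactive X in females, so that X-linked Ctps2 was read from male-type cells. Tag medians in naive CD45+ macrophages and fibroblasts were 13 and 10. In naive CD45- macrophages and fibroblasts they were 120.5 and 106. Naive fibroblasts held no Cd226 UMI. The 282 naive CD45+ lymphocytes had a tag median of 10 and 16 Cd226 UMIs. Their 8.19 CPM of Cd226 lay below the 19.5 and 55.0 CPM of Cd226-/- and WT lymphocytes. Over all kept cells the order was another, with 4.78 CPM of Cd226 in the naive CD45+ library, from 163 UMIs. The Cd226-/-, WT and naive CD45- libraries had 1.89, 3.18 and 0.0274 CPM over all kept cells. The naive CD45- library held only 5 lymphocytes. What sets these values was not tested. The naive pools did not give the same levels for the genes described here, although both are labelled as equal mixes: Glo1 lay nearer to Cd226-/- skin in naive CD45+ cells and nearer to WT skin in naive CD45- cells. Other values lay near the midpoint of the treated libraries, as Zhx2 in naive CD45+ fibroblasts (6.31 CPM, midpoint 5.80 CPM) and Ctps2 in naive CD45- fibroblasts (10.1 CPM, midpoint 11.9 CPM) did. The make-up of the pools, the sort gate, the kinds of cell within each class and the lack of treatment cannot be told apart. Neutrophils also stood apart: the median gene measured in them had a Cd226-/- over WT log2 ratio of -0.20, against 0.02 to 0.06 in the other 6 classes compared, and trimmed-mean (TMM) scaling moved their ratios by 0.62. The 5 melanocyte markers Dct, Pmel, Tyrp1, Mlana and Mitf, all detected, summed to 1217 CPM in Cd226-/- and 7760 CPM in WT neutrophils, which is 2.34% and 14.9% of their level in WT melanocytes; in the other 6 classes they reached at most 0.196% in Cd226-/- and 0.569% in WT cells.

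Glo1 was the highest of the 5 genes in nearly every class and was higher by 2.12- to 2.82-fold in Cd226-/- than in WT cells of 6 of the 7 classes compared. In fibroblasts it reached 161 CPM (157–165) in Cd226-/- skin, against 75.8 CPM (73.4–78.3) in WT skin, a ratio of 2.12 (2.04–2.21). Lymphocytes had 130 CPM in Cd226-/- and 46.3 CPM in WT skin, a ratio of 2.81 (2.22–3.58). Macrophages had 109 and 42.1 CPM, a ratio of 2.59 (2.10–3.20), in Cd226-/- and WT skin. The intervals of both libraries lay apart in each of these classes. Monocytes gave 103 CPM in Cd226-/- and 43.0 CPM in WT skin, dendritic cells 105 and 46.6 CPM, and endothelial cells 196 and 69.6 CPM, in the same order. Ratios of 1.8 (1.37–2.33) in keratinocytes and 1.73 (1.12–2.66) in lymphatic endothelial cells came from only 21 and 39 Cd226-/- cells. Neutrophils were the exception: 26 Glo1 UMIs in each library gave 24.0 CPM in Cd226-/- and 29.2 CPM in WT neutrophils, whose intervals overlap. In neutrophils 10 of the 26 Cd226-/- and 8 of the 26 WT UMIs lay in 1 cell each, and the direction turned with scaling and with how cells were chosen: the log2 ratio of -0.28 was 0.34 with TMM scaling, 0.70 with a stricter mitochondrial limit and 1.96 with each library clustered on its own. At the share of their melanocyte markers, and the 103 CPM of Glo1 in WT melanocytes, melanocyte RNA would hold 2.40 of the 24.0 CPM in Cd226-/- and 15.3 of the 29.2 CPM in WT neutrophils; its part in the exception was not tested. Over the 7 classes the median log2 ratio was 1.26, from -0.28 to 1.5. Glo1 was past 1.5-fold higher in the 6, a description of how it was chosen. Of all genes measured in a class, the share past 1.5-fold higher was 9.12% in endothelial cells, 7.49% in lymphocytes, 6.76% in fibroblasts, 6.2% in neutrophils, 5.63% in dendritic cells, 4.07% in monocytes and 3.87% in macrophages.

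The other genes of the chromosome 17 group went the same way at lower levels. Btbd9 stood at 19.6 CPM (18.2–21.0) in Cd226-/- fibroblasts and 11.6 CPM (10.6–12.6) in WT fibroblasts, a ratio of 1.69 (1.52–1.89). It was 35.1 CPM in Cd226-/- and 18 CPM in WT lymphocytes, 28.7 and 17.3 CPM in macrophages, and 49.9 and 28.1 CPM in neutrophils, each time with an interval of the ratio above 1. Neutrophils, which had the lowest Glo1 level of the 7 classes, had the highest Btbd9 level, and their Btbd9 ratio was 1.78 (1.09–2.98). In monocytes the ratio was 1.29 (0.966–1.74) and in endothelial cells 1.30 (0.602–2.64), neither told apart from 1. Dendritic cells had 15.9 CPM in Cd226-/- and 16.6 CPM in WT skin, with no difference detectable at 33 and 15 UMIs. The median log2 ratio of Btbd9 over the 7 classes was 0.73, below that of Glo1.

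Dnah8 was a low transcript that could be compared in 3 classes. Lymphocytes had the highest level of the 3, with 13.3 CPM (9.18–18.5) in Cd226-/- and 6.17 CPM (3.19–10.8) in WT skin, a ratio of 2.15 (1.09–4.56). Fibroblasts had 1.78 CPM in Cd226-/- and 0.773 CPM in WT skin, from 70 and 37 UMIs, a ratio of 2.31 (1.53–3.54). The ratio of 2.03 (0.692–8.06) in monocytes was not told apart from 1. Macrophages and endothelial cells of Cd226-/- skin held 2 Dnah8 UMIs each and those of WT skin held 0, which allows no comparison.

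**Figure D1:**
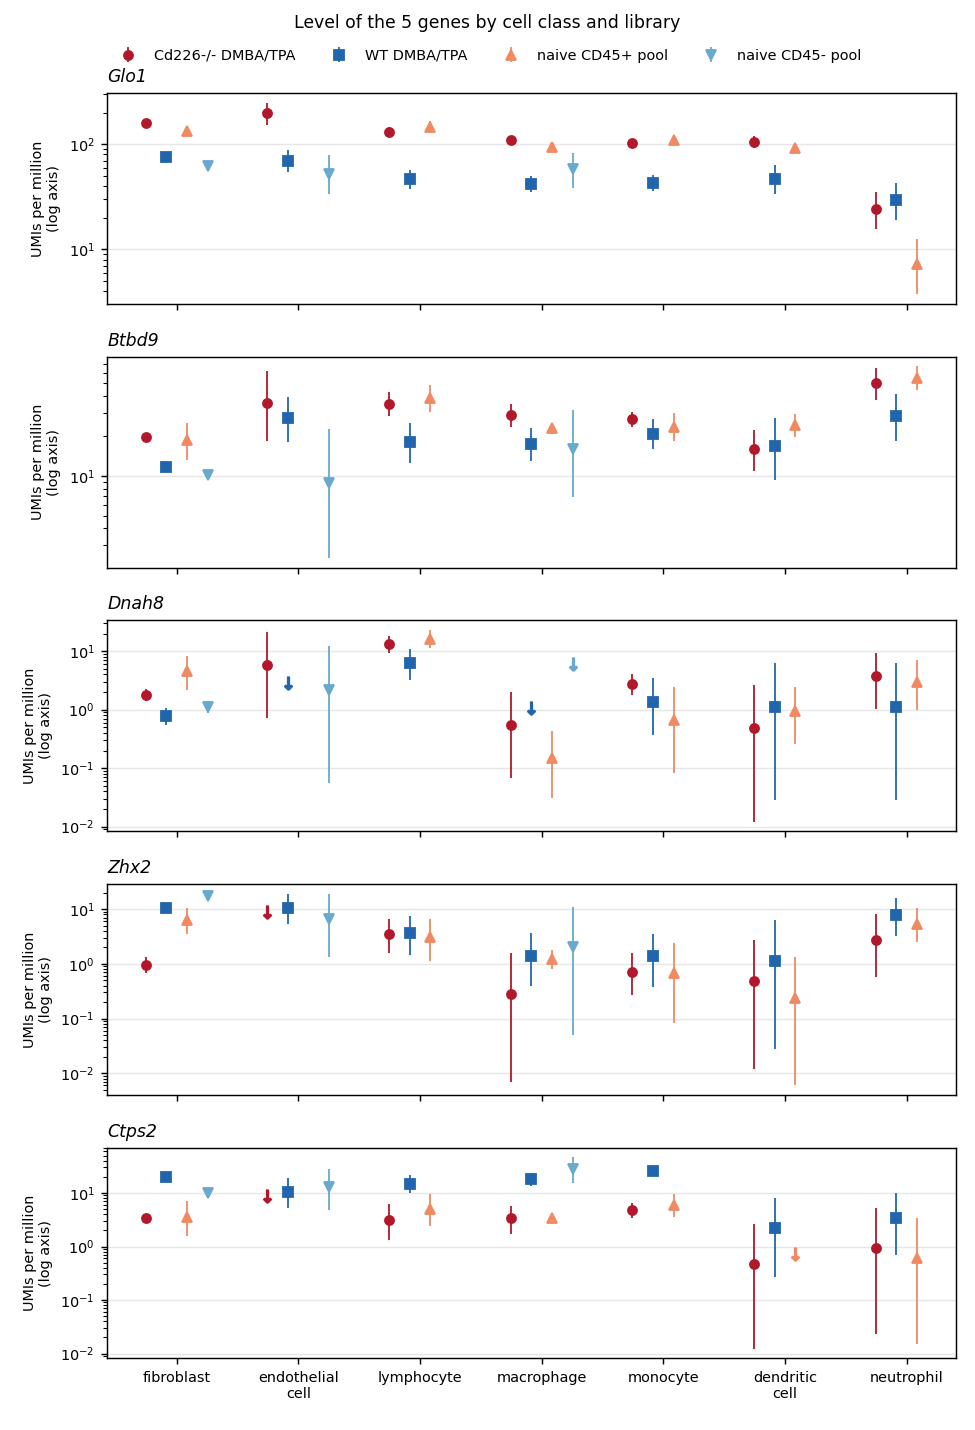
Level of each of the 5 genes (rows, CPM on a log axis) in 7 cell classes of the Cd226-/- and WT libraries after DMBA/TPA and of the naive CD45+ and CD45- pools; points are levels, bars exact 95% Poisson intervals, and arrows mark classes with 0 UMIs at the level of 3 counts. Glo1 of Cd226-/- and naive CD45+ cells lies above that of WT and naive CD45- cells in every class shown but neutrophils, and Ctps2 lies the other way round wherever it is well counted.

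Zhx2 was lower in Cd226-/- skin, but only fibroblasts held enough of it to show this within 1 class. Cd226-/- fibroblasts had 0.969 CPM (0.685–1.33), from 38 UMIs, and WT fibroblasts 10.6 CPM (9.73–11.6), from 509 UMIs, an 11-fold lower level (7.89–15.7). Endothelial cells held 0 UMIs in Cd226-/- and 11 in WT skin, which makes the level at least 1.21-fold lower when the 0 is set to 3 counts, though the counting interval of the ratio still includes 1. Immune cells held little of the gene in either library: lymphocytes had 3.51 CPM in Cd226-/- and 3.60 CPM in WT skin, monocytes 0.721 and 1.37 CPM, macrophages 0.278 and 1.41 CPM, and neutrophils 2.77 and 7.86 CPM. The intervals of these 4 ratios all include 1, so that a difference was not detectable at this depth in any of them. Melanocyte RNA at the share of its markers would hold 0.669 of the 2.77 CPM in Cd226-/- and 4.27 of the 7.86 CPM in WT neutrophils, and its part in that ratio was not tested. The Zhx2 difference was therefore shown in fibroblasts and not in nearly every cell type. A cluster led by Ccl22, Ccl17 and Il4i1, left unnamed, was an exception among immune cells, with 0 Zhx2 UMIs in 158 Cd226-/- cells and 11 in 84 WT cells. That is at least 7.05-fold lower when the 0 is set to 3 counts, with an exact interval that starts at 4.83-fold.

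Ctps2 was lower in Cd226-/- cells by about the same factor in stromal and immune cells. Fibroblasts had 3.44 CPM (2.89–4.07) in Cd226-/- and 20.3 CPM (19–21.6) in WT skin, a 5.89-fold lower level (4.92–7.11). Monocytes had 4.81 CPM in Cd226-/- and 25.9 CPM in WT skin, 5.39-fold lower (3.63–8.12). Macrophages had 3.34 and 18 CPM, 5.40-fold lower (2.84–11.1) in Cd226-/- than in WT skin. Lymphocytes had 3.12 and 14.9 CPM, 4.78-fold lower (2.13–12.1) in Cd226-/- than in WT skin. Endothelial cells held 0 Ctps2 UMIs in Cd226-/- and 11 in WT skin, at least 1.21-fold lower, again with an interval that includes 1. Keratinocytes held 0 in 21 Cd226-/- cells and 21 in 202 WT cells, which were not told apart at this depth. Dendritic cells and neutrophils held 1 to 3 UMIs per library. The median log2 ratio over 5 classes was -2.43. Ctps2 was past 1.5-fold lower in 4 classes and Zhx2 in 3. Of all genes, the share past 1.5-fold lower was 3.23% in lymphocytes, 4.59% in monocytes, 4.74% in macrophages and 6.3% in fibroblasts. It was 6.9% in dendritic cells, 11.1% in endothelial cells and 33.4% in neutrophils. These shares cover genes with at least 50 UMIs in the class, whereas 10 sufficed for the 5 genes, so they are not a matched background. Zhx2 in monocytes (6 Cd226-/- and 4 WT UMIs) and neutrophils (3 and 7) passed on few UMIs, with intervals that include 1. Ctps2 in lymphocytes rests on 8 Cd226-/- and 29 WT UMIs.

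**Figure D2:**
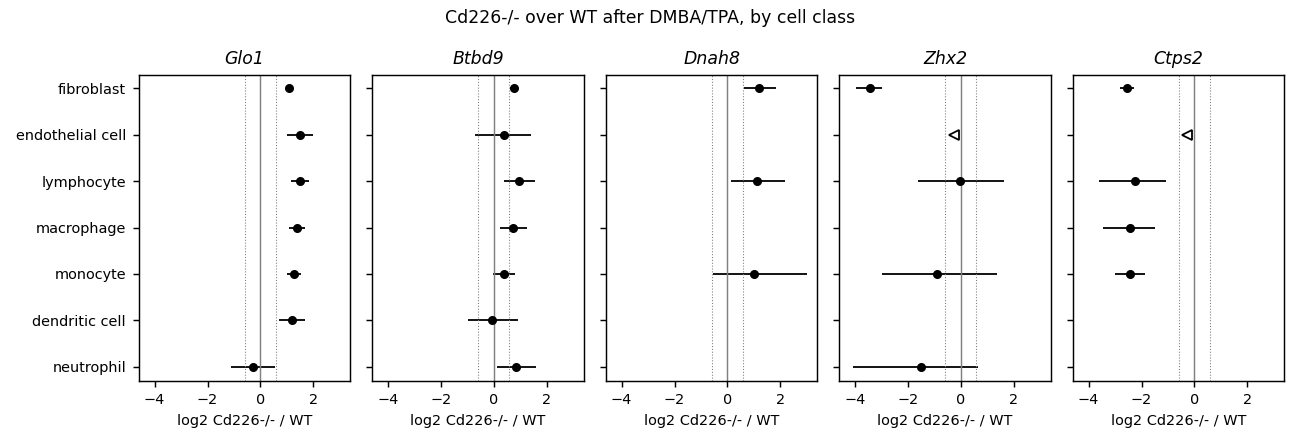
Cd226-/- over WT log2 ratio of each gene by cell class after DMBA/TPA; points are ratios, bars exact 95% intervals of counting error, open triangles bounds where Cd226-/- cells held 0 UMIs, the solid line equality and dotted lines 1.5-fold. Glo1 lies at 1.09 to 1.5 in every class but neutrophils, and Ctps2 at -2.26 to -2.56 in the 4 classes drawn as points.

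Against all genes, a ratio of 1.5 in every class was rare. Among 6649 genes with at least 50 UMIs in at least 4 classes, 0.015% (1 gene, Aven) were higher and 0.105% (7 genes) lower past 1.5-fold in every class measured. Aven, which encodes a cell-death regulator and lies on chromosome 2, had ratios of 0.74 to 0.83 (log2), and stood at 22.5 CPM in Cd226-/- and 13.0 CPM in WT fibroblasts. The 7 lower genes were the melanocyte genes Pmel, Dct and Ptgds, the interferon-induced chemokine gene Cxcl9, the matrix gene Col1a1, the growth-factor-binding protein gene Igfbp5 and Creb5. The summed melanocyte markers were lower in Cd226-/- than in WT cells of all 7 classes, at 0.0113 to 2.34% and 0.158 to 14.9% of the WT melanocyte level, and their part in these counts was not tested. None of the 5 genes passed: Glo1 missed through neutrophils, Btbd9 through monocytes, and the others had too few UMIs. With neutrophils left out, a setting chosen after the values were seen, Glo1 passed among 3 genes higher (0.0461% of 6511, with Aven and Saa3), beside 6 lower (0.0922%). At a minimum of 20 UMIs Ctps2 passed among 13 genes lower (0.148% of 8805), beside 2 higher (0.0227%). These are the values by which the genes were chosen, so the counts describe them and support nothing.

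Clusters of finer identity were compared in the same way; over all genes and clusters with at least 10 UMIs, the interval of the ratio lay above 1 in 9.78% and below 1 in 10.9% of values. Glo1 was higher in Cd226-/- cells in 16 of 17 clusters with at least 50 cells of each library, neutrophils being the exception, and in all 7 fibroblast clusters, by 1.52- to 2.22-fold. The smallest of these, in a cluster led by the agouti gene a, Sostdc1 and Wif1, came with the highest levels, 258 CPM in Cd226-/- and 170 CPM in WT cells. Its interval lay above 1 in the same 16. Btbd9 was higher in 14 of 16 clusters and Dnah8 in 6 of 6, but the interval excluded 1 in only 8 and 1 of them, and 1 of the 6 Dnah8 values is a bound over 0 UMIs. Zhx2 was lower in each of the 6 fibroblast clusters that held enough of it and Ctps2 in 11 of 11 clusters, by 4.51- to 8.10-fold in fibroblasts and 4.58- to 5.39-fold in 3 immune clusters, with intervals that excluded 1 in all 6 and in 10 of the 11. Clusters share their libraries and are not replicates.

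Depth and free RNA were measured beside these values. Cd226-/- fibroblasts were deeper than WT fibroblasts, with medians of 12243 and 9673 UMIs, and a Ctps2 UMI was seen in 4.49% (3.77–5.29) and 18.9% (17.7–20) of them. With each cell thinned to 3000 UMIs, which left out 84 and 238 shallower cells, the expected shares were 1.13% in Cd226-/- and 6% in WT fibroblasts for Ctps2, 0.310% and 3.46% for Zhx2, and 38.9% and 21.1% for Glo1. In 3 bins of fibroblast depth, from shallow to deep, the Cd226-/- over WT log2 ratio of Glo1 was 0.99, 1.14 and 1.19 and that of Ctps2 was -1.81, -2.69 and -2.62. The 6 fibroblast markers, all detected in each of the 5 immune classes compared, summed there to 0.521 to 1.18% of their fibroblast level in Cd226-/- skin and 0.890 to 2.14% in WT skin. At that share fibroblast RNA would hold 0.352 of the 14.9 CPM of Ctps2 in WT lymphocytes. It would hold 0.299 of the 18 CPM in WT macrophages and 0.251 of the 25.9 CPM in WT monocytes. In WT neutrophils and dendritic cells it would hold 0.435 of 3.37 CPM and 0.181 of 2.22 CPM. The part of fibroblast RNA in these levels was not tested.

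Most measured genes next to the 5 lay within 1.5-fold in fibroblasts of the treated libraries, and some differed more in other classes. Within 1 Mb of Glo1, 12 other genes were measured in at least 1 class and none was past 1.5-fold the same way in every class where it was measured, against 3.93% of 13472 genes higher and 4.57% lower. Zfand3, which lies just beyond Btbd9, had 58.3 CPM in Cd226-/- and 58.8 CPM in WT fibroblasts, a log2 ratio of -0.01 (-0.09 to 0.07). Its log2 ratio lay between -0.07 and 0.02 in macrophages, monocytes and neutrophils. It was 0.21 in lymphocytes, 0.48 in dendritic cells and 0.76 in endothelial cells. On the far side of Dnah8, Abcg1, a cholesterol exporter gene, had 5.35 and 5.54 CPM in Cd226-/- and WT fibroblasts, a log2 ratio of -0.05. Glp1r and Umodl1, which lie between, held 1 and 0 UMIs over both treated libraries. The gene 1700097N02Rik, which covers the stretch shared by the annotated Glo1 and Dnah8 genes, was measured in lymphocytes alone, with a log2 ratio of 0.06. Farther out, Wdr4, 867 kb from Glo1, had 14.2 CPM in Cd226-/- and 8.54 CPM in WT fibroblasts, a log2 ratio of 0.73, but 0.22 and 0.30 in macrophages and monocytes. Rsph1, 628 kb from Glo1, was measured in fibroblasts alone, with a log2 ratio of 0.58 (0.10 to 1.07).

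Around Ctps2, none of 8 measured neighbours was past 1.5-fold in every class. Syap1, 12.8 kb away, had 23.6 CPM in Cd226-/- and 27.9 CPM in WT fibroblasts, a log2 ratio of -0.24. Ap1s2, the nearest measured gene on the other side but 877 kb away, had 20.1 and 25.2 CPM, a log2 ratio of -0.32. Over the classes measured, log2 ratios ran from -0.24 to 0.80 (neutrophils) for Syap1. For Ap1s2 they ran from -1.15 (endothelial cells) to 0.44 (lymphocytes). Around Zhx2, 2 of 11 measured neighbours were past the fold, each in the single class that held enough of it: Fam83a at 0.65 in lymphocytes and Gm29394, which overlaps Zhx1, at -1.15 (-2.15 to -0.24) in fibroblasts. Fbxo32, 336 kb from Zhx2, had a log2 ratio of -0.73 (-0.94 to -0.52) in fibroblasts but 0.92 in lymphocytes. Derl1, 29.7 kb from Zhx2, had 92.7 CPM in Cd226-/- and 102 CPM in WT fibroblasts, a log2 ratio of -0.14. No gene on the other side of Zhx2 was measured. The paralogue Zhx1 in the same window had 28.9 and 32.1 CPM in Cd226-/- and WT fibroblasts, and its log2 ratio was -0.15.

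**Figure D3:**
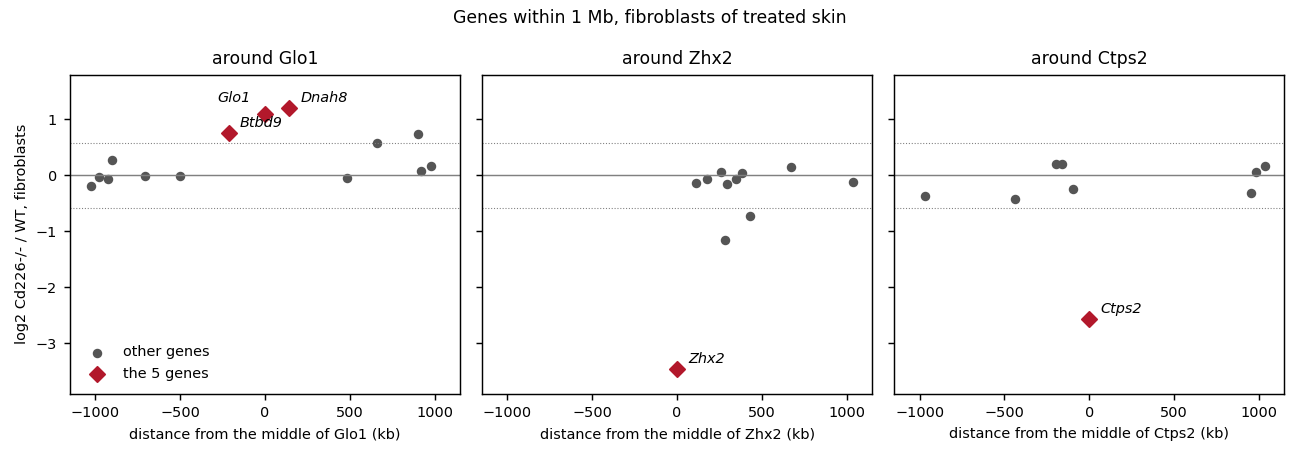
Cd226-/- over WT log2 ratio in fibroblasts of treated skin for genes within 1 Mb of Glo1, Zhx2 and Ctps2, by distance of their middles in kb; red diamonds are the 5 genes, grey points all others with at least 50 UMIs, dotted lines 1.5-fold. Btbd9, Glo1 and Dnah8 lie between 0.76 and 1.21. Of the grey points, Wdr4 around Glo1 lies at 0.73, and Fbxo32 and Gm29394 around Zhx2 at -0.73 and -1.15. The 5 genes were chosen by such ratios, so their distance from the grey points is a description.

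Genes related to the 5 by pathway or family were counted by the same rule, beside 3.93% higher and 4.57% lower of 13472 genes. Of 13 measured genes of methylglyoxal and glutathione metabolism, 0 were past 1.5-fold in every class measured; these include Glo1 itself, which missed through neutrophils. Their values had a median log2 ratio of 0.11 beside 0.02 over all genes. Hagh, the next enzyme after Glo1, had 23.3 CPM in Cd226-/- and 25.6 CPM in WT fibroblasts, and Park7, a protein deglycase, 205 and 199 CPM. Of 23 genes of pyrimidine nucleotide metabolism, 1 was higher (Dctd, dCMP deaminase, measured in fibroblasts alone, 4.18 CPM in Cd226-/- and 2.28 CPM in WT) and 1 lower, Ctps2 itself. The paralogue Ctps went the other way in fibroblasts, with 149 CPM (145–153) in Cd226-/- and 83.5 CPM (80.9–86.1) in WT skin, whereas lymphocytes had 10.9 and 11.3 CPM and monocytes 6.61 and 7.51 CPM. Ctps2 was thus the lower CTP synthase transcript in fibroblasts of both treated libraries. In WT macrophages and monocytes it was the higher of the pair, at 18 and 25.9 CPM against 5.66 and 7.51 CPM of Ctps, and in WT lymphocytes the intervals of the pair overlap; 3′ tags count molecules whatever their length.

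Of 6 genes of the ZHX family and the factor NF-Y, Zhx2 alone passed, and Zhx3 had 25.7 CPM in Cd226-/- and 22.3 CPM in WT fibroblasts. Among 6 genes that answer to Zhx2 in mouse liver, Afp had 0 UMIs in fibroblasts of all 4 libraries. Gpc3 was at 340 CPM in Cd226-/- and 432 CPM in WT fibroblasts. H19 was at 0.357 and 0.167 CPM there, with only 44 UMIs over both treated libraries, and at 35.1 CPM in naive CD45+ fibroblasts. Lpl had 752 CPM in Cd226-/- and 1298 CPM in WT fibroblasts, a log2 ratio of -0.79. Its log2 ratio was -0.73 in monocytes and -2.81 in neutrophils, but 0.14 in endothelial cells, 0.83 in dendritic cells and 1.20 in macrophages. Mup20, a major urinary protein gene of a family of near-identical copies whose reads may be split, was at 0.127 CPM in Cd226-/- and 1.21 CPM in WT fibroblasts, the 1 of 3 measured genes that passed, lower. Of 11 genes of the CUL3 ligase and iron handling 0 passed, Btbd9 included, which missed through monocytes, and Cul3 had 84.6 CPM in Cd226-/- and 71.2 CPM in WT fibroblasts. Of 4 measured axonemal dynein heavy chains, Dnah8 was higher and Dnah1 lower, at 0.612 CPM in Cd226-/- and 0.982 CPM in WT fibroblasts.

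The naive pools show the same genes in skin that had received neither agent; all 4 libraries were in view when the genes were chosen, so these values too are a description. In the naive CD45+ library 143 cells were fibroblasts and 1806 macrophages, and in the naive CD45- library 9865 and 86. Glo1 stood at 134 CPM (119–150) in naive CD45+ fibroblasts and 62.0 CPM (60.2–63.9) in naive CD45- fibroblasts, 2.16-fold higher (1.92–2.43). Beside these, Cd226-/- fibroblasts of treated skin had 161 CPM and WT fibroblasts 75.8 CPM. In macrophages Glo1 was 94.1 CPM in naive CD45+ and 57.8 CPM in naive CD45- cells, 1.63-fold higher (1.13–2.44), and the levels in treated skin were 109 and 42.1 CPM in Cd226-/- and WT macrophages. Nearness was taken as the smaller distance in CPM, over the classes whose treated ratio had an interval apart from 1. Naive CD45+ cells lay nearer to Cd226-/- than to WT cells in 5 of 5 classes for Glo1 and 3 of 4 for Btbd9. The counts were 2 of 2 for Dnah8, 4 of 4 for Ctps2 and 0 of 1 for Zhx2. Naive CD45- cells lay nearer to WT in 5 of 5 classes for Glo1 and 2 of 2 for Btbd9. Their counts were 1 of 1 for Dnah8, 1 of 2 for Ctps2 and 1 of 1 for Zhx2. Folds would place some classes otherwise. Btbd9 of naive CD45+ macrophages was 1.26-fold below Cd226-/- and 1.32-fold above WT macrophages. Ctps2 of naive CD45- fibroblasts was 2.94-fold above Cd226-/- and 2.00-fold below WT fibroblasts. No such tally was made over all genes, and the classes of a pool share 1 library and are not replicates. Naive CD45+ neutrophils, with 7.23 CPM of Glo1, lay below both treated libraries and are not among the 5 classes counted for Glo1.

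Ctps2 followed the same order, though naive CD45- fibroblasts, 2.00-fold below (1.82–2.21) WT fibroblasts, lay between the treated libraries. It was 3.60 CPM (1.56–7.10) in naive CD45+ and 10.1 CPM (9.39–10.9) in naive CD45- fibroblasts, 2.81-fold lower (1.42–6.53), beside 3.44 CPM in Cd226-/- and 20.3 CPM in WT fibroblasts. In macrophages it was 3.35 CPM in naive CD45+ and 27.9 CPM in naive CD45- cells, 8.32-fold lower (4.32–14.9), beside 3.34 and 18 CPM in Cd226-/- and WT macrophages. Naive CD45+ macrophages and Cd226-/- macrophages thus had nearly the same level, with a ratio of 1.00 (0.539–2.04). Naive CD45+ monocytes at 6.03 CPM and lymphocytes at 5.12 CPM were also nearer to Cd226-/- than to WT cells, and the naive CD45- macrophages rest on 14 Ctps2 UMIs.

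Btbd9 was 1.81-fold higher (1.29–2.48) in naive CD45+ than in naive CD45- fibroblasts, at 18.5 and 10.2 CPM, and Dnah8 4.04-fold higher (1.86–7.83), at 4.51 and 1.12 CPM from 10 and 78 UMIs. In macrophages the Btbd9 ratio of 1.43 (0.721–3.34) was not told apart from 1. Zhx2 took a middle place: 6.31 CPM (3.45–10.6) in naive CD45+ and 17.4 CPM (16.4–18.4) in naive CD45- fibroblasts is 2.75-fold lower (1.64–5.05), yet naive CD45+ fibroblasts stood 6.51-fold above (3.26–12.3) the 0.969 CPM of Cd226-/- fibroblasts. Against WT fibroblasts they were 1.69-fold lower, with an interval (0.995–3.11) that includes 1. All 5 genes thus differed between the naive fibroblasts in the direction in which the treated genotypes differed.

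That comparison has a high background. In naive fibroblasts 20.7% of 12028 genes were higher and 9.74% lower past 1.5-fold in the CD45+ library, with a median log2 ratio of 0.22 over all genes, and in naive macrophages 17.1% and 17.4% of 10108. The 2 libraries differ in sort gate and depth: fibroblasts had medians of 15651 UMIs in the CD45+ and 6725 UMIs in the CD45- library. They also differ in their mix of fibroblast clusters. The cluster led by Ndufa4l2 held 11 CD45+ and 3262 CD45- cells and no treated cell. That led by Mrgprg held 31 CD45+ and 11 CD45- cells, beside 913 Cd226-/- and 945 WT cells of treated skin. The part of this mix was not tested. Of 516 genes higher past 1.5-fold in Cd226-/- over WT fibroblasts and measured in both comparisons, 58.9% were also higher in naive CD45+ over CD45- fibroblasts, which is 12.5% of the 2431 higher there. Of 607 lower, 34.3% were also lower, which is 19.5% of 1064. In macrophages the shares were 25.2% of 294 higher and 28.1% of 342 lower genes, which are 5.77% of 1282 and 9.61% of 999 in the naive comparison. Among 7525 genes measured in both comparisons of both classes, 0.0532% (4 genes) were higher past 1.5-fold in all 4 and 0.0664% (5 genes) lower, a count made after the values were seen. Glo1 was 1 of the higher genes, with Saa3, S100a9 and Gm47283. Ctps2 was 1 of the lower genes, with Kbtbd11, Hpgd, Col1a1 and Mamdc2. Its smallest absolute log2 ratio of the 4 was 1.49, in naive fibroblasts. That value rests on 8 Ctps2 UMIs in the CD45+ library, with an interval of the log2 ratio from -2.71 to -0.50. Glo1 and Ctps2 were chosen with these libraries in view, so their place among the 9 is a description.

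**Figure D4:**
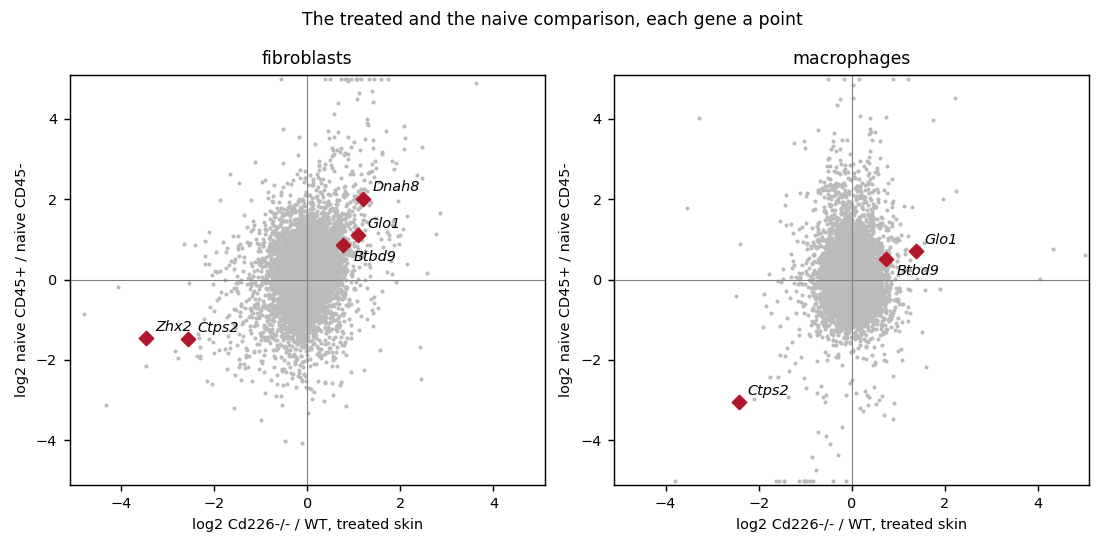
Log2 ratio of Cd226-/- over WT after DMBA/TPA (x axis) and of naive CD45+ over naive CD45- (y axis) in fibroblasts and macrophages; each grey point is a gene with at least 50 UMIs in both comparisons, values past 5 are drawn at 5, and red diamonds are the 5 genes where measured. Glo1, Btbd9 and Dnah8 lie at the upper right and Zhx2 and Ctps2 at the lower left.

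Fibroblast RNA was also measured in the naive classes. The fibroblast markers summed to 5.78% of their fibroblast level in naive CD45- macrophages and to 0.0859% in naive CD45+ macrophages. At that share fibroblast RNA would hold 0.585 of the 27.9 CPM of Ctps2 and 3.59 of the 57.8 CPM of Glo1 in naive CD45- macrophages. Its part was not tested.

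Likeness to other genes was read from class-centred log2 levels over 21 combinations of class and library in 7 classes, which share their libraries, among 6650 genes. Nearest to Glo1 were Abcf3, Snrnp27 and Wdr3, with Pearson's r of 0.85, 0.85 and 0.83, although none was past 1.5-fold in fibroblasts: Abcf3 had 18.9 CPM in Cd226-/- and 17.7 CPM in WT. Nearest to Ctps2 were Tppp3, Pmel and Ptgds with r of 0.75, 0.75 and 0.74, and nearest to Zhx2 were H2-Q4, Tppp3 and Rabac1 with r of 0.71, 0.69 and 0.69. Tppp3 had 65.1 CPM in Cd226-/- and 243 CPM in WT fibroblasts. Among the 5 genes, r was -0.65 between Glo1 and Ctps2, -0.49 between Glo1 and Zhx2 and 0.56 between Zhx2 and Ctps2. H2-Q4 belongs to a family of near-identical class I genes, so its counts are uncertain.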

How the data were processed

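Single-cell 3′ libraries (10x, v3.1) were counted by the authors with Cell Ranger 3.1.0 on mm10, per the submitters' processing notes; the deposited matrices hold raw counts of UMIs per gene and called cell, of which column sums gave 71245703 (Cd226-/-), 72606822 (WT), 42043869 (naive CD45+) and 81406730 (naive CD45-) gene UMIs. The members, lists and tests were chosen with earlier results of these data known. Cells with at least 500 genes, 1000 UMIs and at most 10% mitochondrial UMIs were kept. Scrublet (scanpy 1.11.5) doublets were left out; its automatic threshold marked 0.256% in the naive CD45+ library, so the 143 cells with the highest scores, 4.07% of those tested, were left out there. Clusters (2000 variable genes, none a member; 30 components; Leiden resolution 1.0) were named by marker lists; rules for mixed clusters were set after clusters were seen. Clusters led by Cd207 or Ccl22, among others, stayed unnamed.

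UMIs were summed per class and library and divided by the class total. A class entered a member's median with at least 50 cells and 10 UMIs over both treated libraries. Ratios have exact conditional binomial intervals and levels exact Poisson intervals, both for counting error only; UMIs of 1 cell are not independent. A count of 0 was set to 3 over the class for bounds. Pearson's r used log2(CPM + 1). TMM factors came from edgeR 4.0.16. No test between groups was possible with 1 library each. The scan over classes was tested on simulated data. Genes named are the 5 members, their nearest measured neighbours and those past the fold, the scan's genes, listed genes past the fold, the 3 most alike genes, and others given as levels. Gene IDs were matched to GENCODE vM21 by identifier.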

Additional observations from a re-analysis of the deposited data

Results flagged for a closer look

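2 values went against the other classes of the same gene, and neither difference was tested. Glo1 in neutrophils had a Cd226-/- over WT log2 ratio of -0.28, whereas its other 6 classes were all above 0; the interval reached from -1.12 to 0.56, and the value was 0.34 with TMM scaling, 0.70 with a stricter mitochondrial limit and 1.96 with each library clustered on its own. Btbd9 in dendritic cells had a log2 ratio of -0.068, with an interval from -0.99 to 0.92, whereas its other 6 classes were above 0. The melanocyte RNA values given beside the neutrophil level of Glo1 move with the first of these, and their part was not tested. No group holds enough libraries for a check of single libraries against their group.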

How the results depend on the processing

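Each median log2 ratio over classes kept its sign under TMM scaling, clustering at resolution 2.0, clustering of each library on its own, leaving out the richest cell, keeping doublets, a 5% mitochondrial limit, leaving out neutrophils and taking all kept cells together (the last 2 chosen after seeing the data). The range was 0.99 to 1.36 for Glo1, 0.54 to 0.76 for Btbd9, 0.80 to 1.29 for Dnah8, -2.54 to -2.41 for Ctps2 and -3.12 to -0.60 for Zhx2, whose median rests on few UMIs outside fibroblasts. Leaving the 5 genes out of clustering changed nothing, since none was among the genes used. Of 204 class values under alternatives, 3 moved beyond their counting error: Glo1 in neutrophils went to 0.70 at 5% mitochondrial UMIs, and separate clustering of the libraries put it at 1.96 in neutrophils and 1.18 in fibroblasts. The count of genes higher in every class was 1; it was 6 with each library clustered on its own, 2 without the cell with most UMIs, 2 at 5% mitochondrial UMIs, 3 without neutrophils, 2 at 20 UMIs, 0 at 6 classes and 0 at 2-fold. The count of genes lower was 7; it was 13 at 20 UMIs, 1 at 6 classes and 4 at 2-fold. It was 5 with TMM scaling, 9 at resolution 2.0, 9 with doublets kept and 6 with each library clustered on its own, of which 5, 7, 3 and 2 are among the 7, and 6 at 5% mitochondrial UMIs and 6 without neutrophils, of which 5 each are. Glo1 was among those higher with each library on its own, at 5% mitochondrial UMIs and without neutrophils, and Ctps2 among those lower with each library on its own and at 20 UMIs. The cause of these moves was not tested beyond the setting itself. No paired analysis was possible because each group has 1 library, and none could be left out. Depth limits Dnah8, Zhx2 outside fibroblasts and Ctps2 in dendritic cells and neutrophils.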

Other observations

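Values outside the comparisons above came from cells left unnamed and from a class seen in 1 library only. Unnamed cells had 124 CPM of Glo1 in Cd226-/- and 55.5 CPM in WT skin, 30.2 and 22.6 CPM of Btbd9, and 1.22 and 6.27 CPM of Zhx2. Unnamed cells led by Cd207, a Langerhans cell gene, had 111 CPM of Glo1 in 73 Cd226-/- cells and 48.0 CPM in 60 WT cells. The 34 melanocytes of the WT library held 28.7 CPM (16.7–45.9) of Zhx2, above the 10.6 CPM of WT fibroblasts, and no melanocyte class of at least 20 cells was found in the other libraries.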
